A study of Mus musculus with 12 samples.

Results

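The 37 genes described here encode the mouse factors of blood coagulation, their inhibitors and the enzymes that dissolve fibrin. They were taken as a fixed list of symbols, matched to Ensembl identifiers, and are 37 of the 53715 genes listed in the count matrix. All 37 had more than 10 counts in at least 1 library and were among the 17779 genes tested. Poly(A) RNA was sequenced from 12 libraries in 3 groups of 4 biological replicates, all from C57BL/6JOlaHsd mice. Hepatoblasts were Dlk1+ cells isolated with magnetic beads from pools of E14.5 embryonic livers and lysed directly. Diff. hepatocytes were such hepatoblasts after 4 days on fibronectin in a differentiation medium with serum, ITS-X, dexamethasone and Matrigel. Mature hepatocytes came from livers of adult males, 8 to 12 weeks old, by collagenase perfusion, and were not cultured. Both comparisons with mature hepatocytes therefore also compare embryonic with adult cells, and the sexes of the pooled embryos are not given.

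Most circulating clotting factors are secreted by hepatocytes. In the cascade, tissue factor (encoded by F3) with factor VII, or the contact system of factor XII, prekallikrein and kininogen, starts a chain of serine proteases that ends in thrombin, which cuts fibrinogen to fibrin. Antithrombin, protein C and related inhibitors limit the chain, factor XIII cross-links the clot, and plasmin, made from plasminogen by its activators tPA (Plat) and uPA (Plau), dissolves it. Some of the genes are expressed mainly outside hepatocytes in the liver: Vwf and F8 in endothelial cells, Vwf also in megakaryocytes, F13a1 in macrophages and megakaryocytes.

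The libraries held 19581551 to 25216977 counts on genes. Levels are given as counts per 1000000 counts of a library (CPM) with TMM scaling, which sets libraries to a common level on most genes, as the mean ± SD of 4 libraries where no library is listed, and libraries are listed in the order of replicates 1 to 4. Dlk1, on which hepatoblasts were isolated, stood at 2461 to 4199 CPM in hepatoblasts, 88.3 to 99.1 in Diff. and 3.17 to 6.42 in mature hepatocytes. The hepatocyte list (Alb, Ttr, Apoa1, Cps1, Tat, G6pc) had all 6 genes called higher in mature hepatocytes than in hepatoblasts, and 4 in Diff. hepatocytes. Hepatoblast replicate 1 stood apart in blood cell markers, with 2890 CPM over 10 erythroid genes against 353 to 588 in the other 3 libraries, 405 against 95.4 to 118 over 10 macrophage genes, and 456 against 31.1 to 50.1 over 6 granulocyte genes. Among Diff. hepatocytes, replicate 1 had 213 CPM over the bile duct genes against 70 to 93.5, and 2586 over the mesenchymal genes against 1132 to 1766. In bulk RNA of this kind, fewer cells of a type and less RNA per cell cannot be told apart.

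Coagulation and fibrinolysis genes took 2.04 ± 0.286% of all counts in hepatoblasts, 4.62 ± 0.221% in Diff. and 2.86 ± 0.236% in mature hepatocytes. The 4 libraries of Diff. hepatocytes, at 4.39 to 4.88%, lay above all 8 others. The 3 fibrinogen chains alone made up 2.82 ± 0.198% of the counts of Diff. hepatocytes, against 0.681 ± 0.0893% in hepatoblasts and 1.14 ± 0.215% in mature hepatocytes. Per kilobase of transcript the order of the genes also differed between groups. Serpinf2 led in hepatoblasts with 1036 ± 217 CPM per kb, ahead of Fga with 827 ± 153. Both come from the same 4 libraries, so these SDs do not measure the spread of their difference. Serpinf2 had the higher CPM in each of these libraries and has the shorter transcript. Fga led in Diff. hepatocytes with 3849 ± 253 CPM per kb, followed by Fgb with 3303 ± 164, Fgg with 2532 ± 188 and Kng1 with 2325 ± 58.4. In mature hepatocytes the highest means were those of Fga with 2405 ± 470 CPM per kb, Fgg with 1876 ± 353, Vtn with 1810 ± 37.2 and Fgb with 1659 ± 251. These values also share their libraries, and the order of the genes within a group was not tested.

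Genes were called at an edgeR adjusted p under 0.01, over all genes tested, and an absolute log2 fold change over 1. Between Diff. hepatocytes and hepatoblasts, 16 of the 37 were called higher, 3 lower and 18 were not called. That is 51.4% called, where 28.9% of all tested genes were called, 14.9% higher and 14% lower. The median log2 fold change was 0.76 over the 37 genes and -0.01 over all tested genes. Between mature hepatocytes and hepatoblasts, 24 were called higher and 6 lower, 81.1% in all, against 44.8% of all tested genes, of which 20.1% were higher and 24.7% lower, and the medians were 1.48 and -0.15. Between Diff. hepatocytes and mature hepatocytes, 9 were higher and 12 lower, 56.8% against 35.8% of all tested genes, with 20.2% higher and 15.6% lower, and the medians were -0.30 and 0.09. By library, 21 of the 37 lay wholly above and 5 wholly below hepatoblasts in Diff. hepatocytes, where 57.5% of all tested genes had no overlap, and 25 above and 7 below in mature hepatocytes, against 66%. Diff. hepatocytes lay above mature hepatocytes in 15 and below in 17, against 61.6% of all tested genes. The comparisons share libraries and are not independent of one another.

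**Figure D1:**
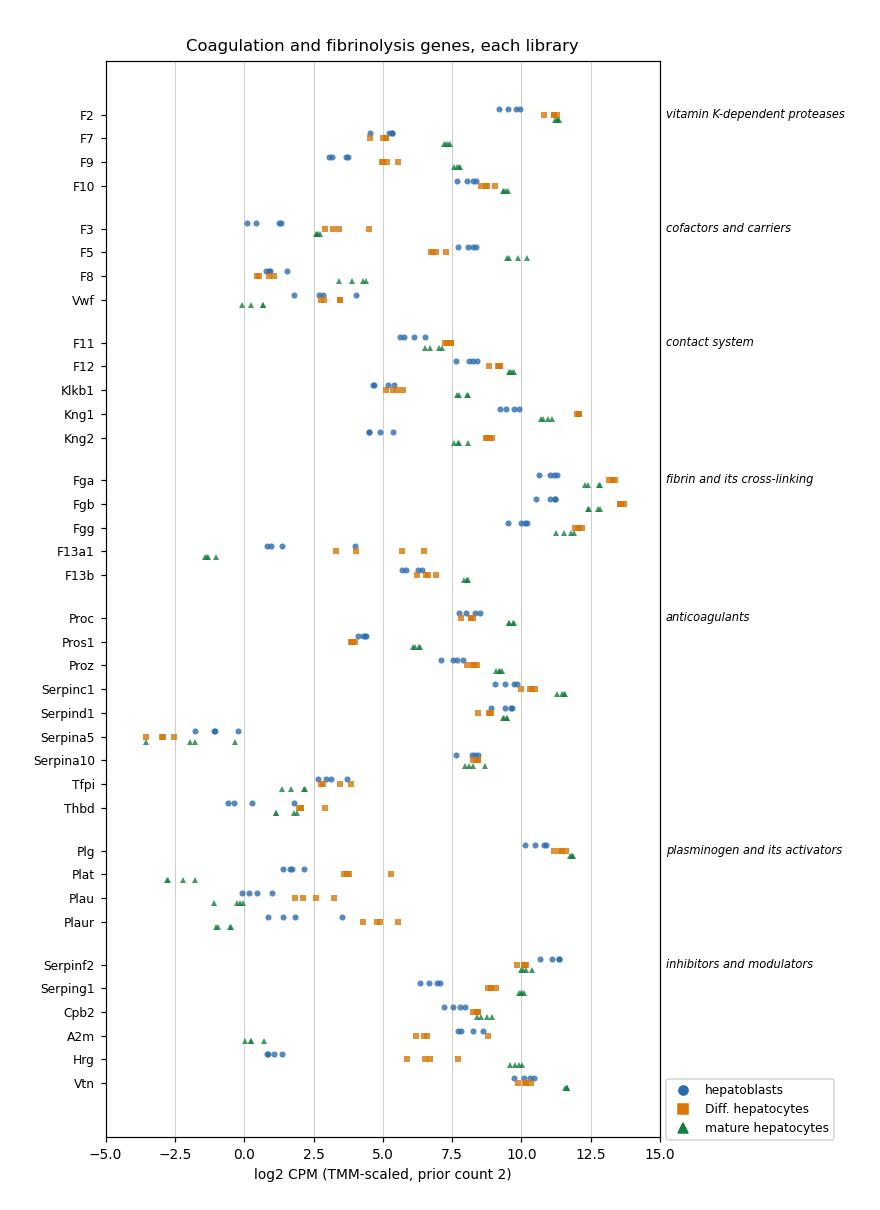
Log2 CPM (horizontal axis, prior count of 2) of the 37 genes in each of the 12 libraries, grouped by role; circles are hepatoblasts, squares Diff. hepatocytes and triangles mature hepatocytes. Fibrinogen chains and kininogens are rightmost in Diff. hepatocytes, most other secreted factors in mature hepatocytes, and Plat, Plaur, F13a1 and A2m are leftmost in mature hepatocytes.

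These counts depend on how the libraries were scaled. TMM factors were 1.23 to 1.44 in hepatoblasts, 1.03 to 1.08 in Diff. and 0.677 to 0.778 in mature hepatocytes. With library totals in place of TMM, the median log2 fold change of all genes shifted by -0.32, -0.85 and 0.53 in the 3 comparisons in the order above, and the share of higher genes among those called fell from 51.5 to 35.4%, fell from 44.9 to 20.2% and rose from 56.4 to 75.6%. The coagulation and fibrinolysis genes were then 14 higher and 3 lower, 10 higher and 8 lower, and 13 higher and 8 lower. In mature hepatocytes against hepatoblasts the 10 were F7, F8, F9, Klkb1, Kng2, F13b, Pros1, Serpinc1, Serping1 and Hrg. The other 14 kept a positive log2 fold change of 0.20 to 0.98.

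Taking the calls of the 3 comparisons together, the most frequent pattern was that of F7, F8, Klkb1, F13b, Proc, Pros1, Serpinc1 and Vtn. These 8 were called higher in mature hepatocytes than in both hepatoblasts and Diff. hepatocytes and were not called between the latter. With library totals F13b (-0.87), Serpinc1 (-0.63) and Vtn (-0.97) were not called between Diff. and mature hepatocytes, nor Proc (0.64) and Vtn (0.62) between mature hepatocytes and hepatoblasts. F2, F3 and the 3 fibrinogen chains were called higher in both hepatocyte groups than in hepatoblasts, with no call between the hepatocyte groups. Between those groups F3 (1.02) and Fgb (0.99) lay close to the fold change limit. F9, Serping1 and Hrg were called in all 3 comparisons, lowest in hepatoblasts and highest in mature hepatocytes. F13a1, Plat and Plaur were called higher in Diff. hepatocytes and lower in mature hepatocytes than in hepatoblasts. F5 had the opposite pattern, lower in Diff. hepatocytes and higher in mature hepatocytes. Of all 37, Serpind1 and Serpina10 alone were not called in any comparison.

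**Figure D2:**
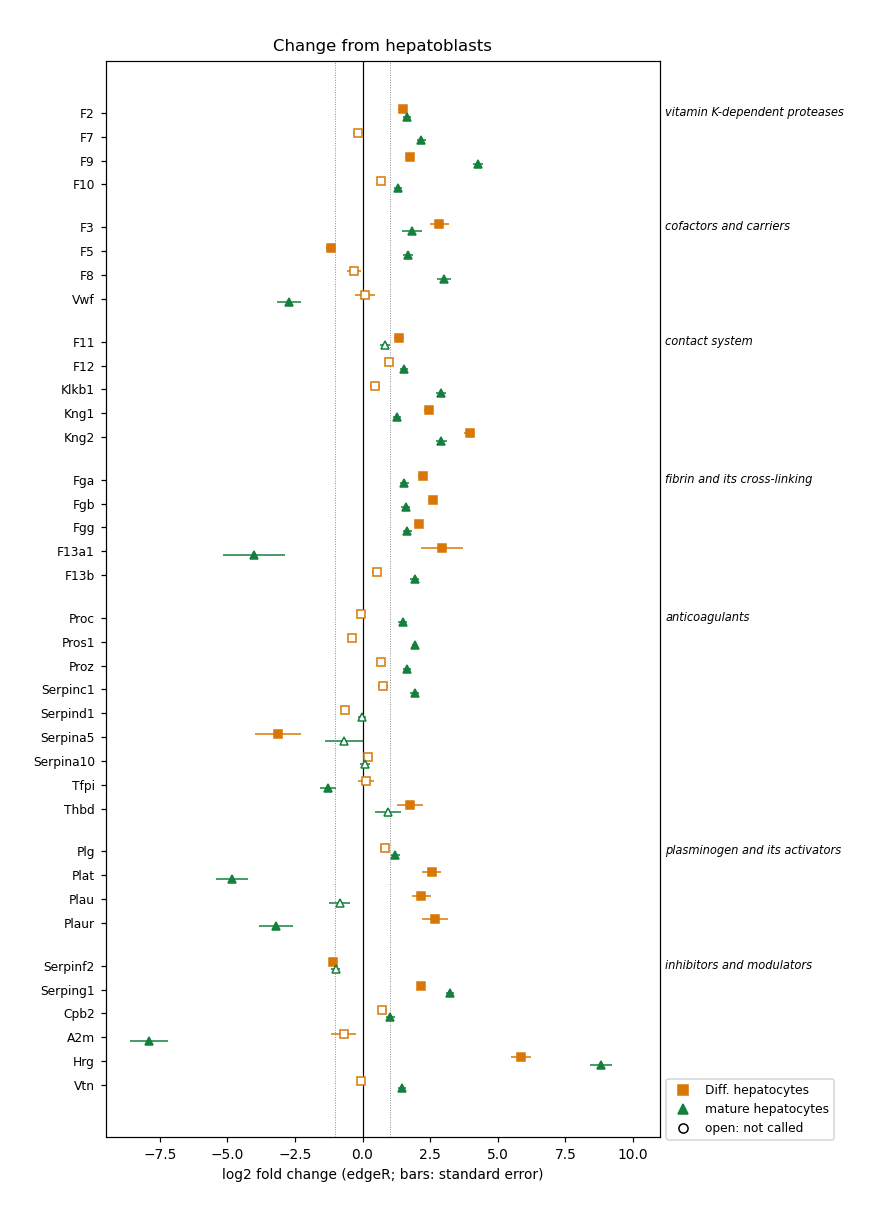
Log2 fold change from hepatoblasts (horizontal axis, bars are standard errors) of Diff. hepatocytes (squares) and mature hepatocytes (triangles), from edgeR; filled symbols were called, open symbols were not, and dotted lines mark 1 and -1. Hrg lies farthest right, at 5.85 and 8.83, and A2m farthest left, at -7.90 in mature hepatocytes.

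Against hepatoblasts, 14.9% of all tested genes were called higher in Diff. and 20.1% in mature hepatocytes. Among the vitamin K-dependent proteases, 2 of 4 were called higher in Diff. and 4 of 4 in mature hepatocytes than in hepatoblasts. F2, prothrombin and the most abundant of them per length, was at 579, 731, 895 and 983 CPM in hepatoblasts, 1816, 2288, 2319 and 2484 in Diff. and 2545, 2389, 2475 and 2594 in mature hepatocytes. Hepatoblasts were below all other libraries, whereas both hepatocyte groups overlapped. Against hepatoblasts the log2 fold change of F2 was 1.48 ± 0.16 (SE) in Diff. hepatocytes (edgeR adjusted p = 3.46e-06) and 1.65 ± 0.16 in mature hepatocytes (edgeR adjusted p = 6.16e-07), and between both hepatocyte groups it was -0.17 ± 0.15, or 0.36 with library totals. F9, factor IX, stood at 8.22, 8.87, 12.7 and 13.4 CPM in hepatoblasts, 31.7, 46.7, 31.2 and 35.7 in Diff. and 219, 213, 206 and 192 in mature hepatocytes. The 3 groups did not overlap. The log2 fold change of F9 was 1.75 ± 0.17 in Diff. hepatocytes (edgeR adjusted p = 1.41e-06) and 4.26 ± 0.18 in mature hepatocytes (edgeR adjusted p = 2.86e-10), the largest rise of a protease of the cascade. F7, the partner of tissue factor, was called in mature hepatocytes at 2.18 ± 0.17, and was -0.18 ± 0.17 in Diff. hepatocytes. F10, which forms thrombin from prothrombin, was called in mature hepatocytes at 1.32 ± 0.15 and did not reach the fold change limit in Diff. hepatocytes at 0.67 ± 0.14. Vitamin K recycling and carboxylation genes are given with the other genes of the pathway.

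The cofactors and carriers went different ways. F3, tissue factor, was at 1.26, 2.39, 2.33 and 0.994 CPM in hepatoblasts, 22.8, 7.53, 10.7 and 9.17 in Diff. and 5.97, 6.29, 6.54 and 6.02 in mature hepatocytes. No hepatoblast library reached a library of either hepatocyte group. The log2 fold change of F3 was 2.84 ± 0.36 in Diff. hepatocytes (edgeR adjusted p = 1.73e-05) and 1.83 ± 0.36 in mature hepatocytes (edgeR adjusted p = 0.000463). Between both hepatocyte groups it was 1.02, with all Diff. libraries above the mature ones, but did not pass the adjusted p limit. F3 was called there by DESeq2's Wald test (1.03, adjusted p = 0.00717), with no filter beyond 1 count (1.04) and with library totals (1.55). F5, factor V and the cofactor of factor Xa, was at 213, 267, 305 and 330 CPM in hepatoblasts, 112, 122, 107 and 155 in Diff. and 760, 707, 933 and 1180 in mature hepatocytes. Without overlap, Diff. hepatocytes were lowest and mature hepatocytes highest. The log2 fold change of F5 was -1.17 ± 0.18 in Diff. hepatocytes (edgeR adjusted p = 0.000112), close to the limit of 1, and 1.69 ± 0.19 in mature hepatocytes (edgeR adjusted p = 2.33e-06). An antisense gene, Gm16548, overlaps 262 exon bases of F5.

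F8, factor VIII and the cofactor of factor IXa, was at 2.81, 1.79, 1.65 and 1.82 CPM in hepatoblasts, 1.3, 1.38, 1.78 and 2.02 in Diff. and 19.2, 10.5, 21 and 14.7 in mature hepatocytes. Mature hepatocytes were above all other libraries, at a log2 fold change of 3.01 ± 0.25 from hepatoblasts (edgeR adjusted p = 1.46e-07). The 10 endothelial markers summed to 284, 168, 295 and 209 CPM in the same mature libraries, in the same order as F8, and to 119 to 217 in hepatoblasts and 55.5 to 104 in Diff. hepatocytes. Of these markers 4 were called higher in mature hepatocytes than in hepatoblasts and none lower. Their part in the F8 result was not tested. Vwf, the carrier of factor VIII, was at 16.2, 6.39, 7.03 and 3.41 CPM in hepatoblasts, 10.8, 10.9, 6.75 and 7.25 in Diff. and 1.51, 1.09, 1.52 and 0.869 in mature hepatocytes. Mature hepatocytes were lowest, with a log2 fold change of -2.72 ± 0.43 from hepatoblasts (edgeR adjusted p = 6.91e-05), and Diff. hepatocytes overlapped hepatoblasts at 0.11 ± 0.37, or -0.25 with library totals. The 8 megakaryocyte and platelet markers summed to 66.1, 32.5, 33.2 and 16.1 CPM in hepatoblasts, 68.8, 73.6, 24.7 and 39 in Diff. and 4.47 to 6.03 in mature hepatocytes. All 8 were called lower in mature hepatocytes than in hepatoblasts, and Gp6 was at 0 in all 4 mature libraries. Of the 10 endothelial markers, 7 were called lower in Diff. hepatocytes than in hepatoblasts, a comparison in which Vwf was not called. The part of either cell type in the Vwf result was not tested.

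**Figure D3:**
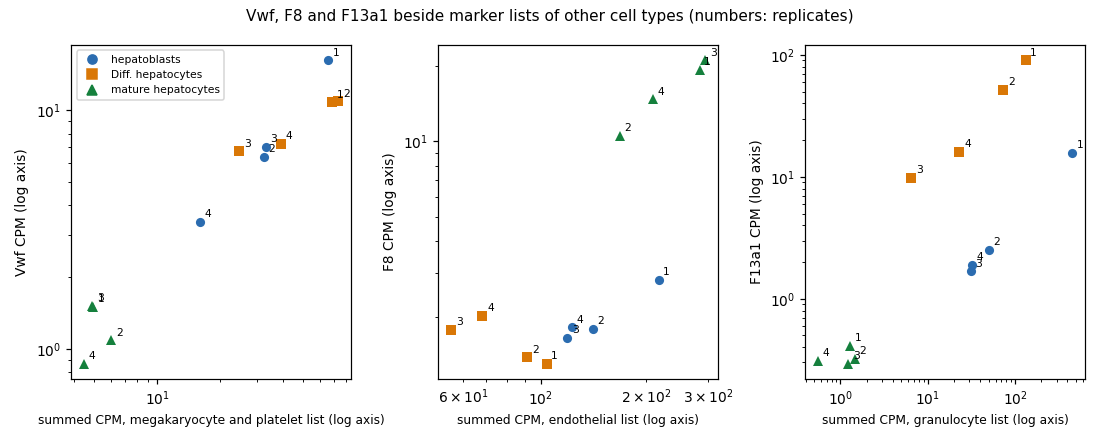
Vwf, F8 and F13a1 (CPM, vertical log axes) against the summed CPM of the megakaryocyte and platelet, endothelial and granulocyte marker lists (horizontal log axes); each point is a library and the number beside it its replicate. Mature hepatocytes have the least Vwf and the least megakaryocyte and platelet RNA, F8 stands apart in the 4 mature libraries, and hepatoblast replicate 1 has the most F13a1 and the most granulocyte RNA of its group.

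In the contact system, 3 of 5 genes were called higher in Diff. and 4 of 5 in mature hepatocytes than in hepatoblasts. The shares of all tested genes called higher were 14.9% and 20.1%. Kng1, which encodes kininogen, the source of bradykinin and the carrier of prekallikrein, was at 600, 705, 851 and 975 CPM in hepatoblasts, 4331, 4255, 4307 and 4094 in Diff. and 1748, 1988, 1687 and 2202 in mature hepatocytes. Its sister gene Kng2 was at 22.7, 22.8, 29.9 and 41.7 CPM in hepatoblasts, 466, 495, 423 and 434 in Diff. and 212, 216, 188 and 271 in mature hepatocytes. Both were lowest in hepatoblasts and highest in Diff. hepatocytes, with no overlap of the 3 groups. Log2 fold changes in Diff. hepatocytes were 2.44 ± 0.15 for Kng1 (edgeR adjusted p = 2.99e-08) and 3.96 ± 0.20 for Kng2 (edgeR adjusted p = 4.22e-09). In mature hepatocytes they were 1.28 ± 0.15 and 2.92 ± 0.19. Of the genes of the contact system, Kng1 and Kng2 alone were called higher in Diff. than in mature hepatocytes, at 1.16 ± 0.15 (edgeR adjusted p = 1.44e-05) and 1.03 ± 0.18 (edgeR adjusted p = 0.000186). The call of Kng2 was lost, at 0.99 and 0.96, without Diff. hepatocytes replicate 2 or mature hepatocytes replicate 3. With the fold limit inside the test, neither Kng1 (edgeR glmTreat, adjusted p = 0.155) nor Kng2 (edgeR glmTreat, adjusted p = 0.472) was called there.

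The log2 ratio of Kng1 to Kng2 per length was 5.09 ± 0.17 in hepatoblasts, 3.55 ± 0.10 in Diff. and 3.44 ± 0.09 in mature hepatocytes. The difference from hepatoblasts was -1.53 in Diff. hepatocytes and -1.65 in mature hepatocytes (each p = 0.0286, exact permutation test, two-sided, the smallest p that 4 against 4 libraries can give, adjusted over 12 ratio tests 0.0429). Both hepatocyte groups differed by 0.12 (exact permutation p = 0.143, adjusted 0.156). Kng1 shares 9.77% and Kng2 10.8% of their 75-base stretches with each other, so part of their reads cannot be assigned to 1 gene. Klkb1, prekallikrein, was at 25.5, 24.7, 36 and 41.8 CPM in hepatoblasts, 34.5, 52.7, 41.6 and 45.5 in Diff. and 216, 265, 206 and 269 in mature hepatocytes. Mature hepatocytes alone stood apart, at 2.90 ± 0.19 from hepatoblasts (edgeR adjusted p = 1.25e-08) and at -2.45 ± 0.19 for Diff. against mature hepatocytes (edgeR adjusted p = 9.69e-08). Klkb1 is uncertain because it shares 42.4% of its 75-base stretches with Gm45753, which overlaps it on the same strand. F11, factor XI, was called higher in Diff. hepatocytes only against hepatoblasts, at 1.34 ± 0.19, and was 0.84 ± 0.19 in mature hepatocytes, or 1.03 without hepatoblast replicate 4. F12, the factor that starts the contact pathway, lay at 0.99 ± 0.15 in Diff. hepatocytes, just inside the limit, which it passed at 1.03 to 1.09 without hepatoblast replicate 3 or 4 or Diff. hepatocytes replicate 1, and was called in mature hepatocytes at 1.52 ± 0.15.

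The fibrinogen genes had the highest levels of all 37 in Diff. hepatocytes. Fga, Fgb and Fgg encode the chains of 1 hexameric protein and are neighbours on chromosome 3 (GRCm38), at chr3:83026076-83033627, chr3:83040141-83049863 and chr3:83007724-83015049, with no other protein-coding gene between them. Since they moved together, the 120 bases upstream of each start are shown, 5′ to 3′, from RefSeq promoter sequences of GRCm38.p6, from chr3:83007604-83007723 on the plus strand, chr3:83025956-83026075 on the plus strand and chr3:83049864-83049983 on the minus strand. Capitals mark matches, on either strand, to the letters CTGGGAA (an interleukin-6 response element), TTGCNNAA (C/EBP, a liver-enriched factor) and ACANNNTGT (glucocorticoid receptor, whose ligand dexamethasone was in the medium). None of these motifs was marked in all of the stretches shown, and ACANNNTGT was marked in Fga only. Their part in the fibrinogen levels was not tested.
Fgg: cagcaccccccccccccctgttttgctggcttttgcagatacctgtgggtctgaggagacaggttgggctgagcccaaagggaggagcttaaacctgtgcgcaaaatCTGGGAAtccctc
Fga: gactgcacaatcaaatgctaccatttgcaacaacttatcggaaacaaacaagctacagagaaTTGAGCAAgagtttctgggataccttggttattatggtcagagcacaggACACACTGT
Fgb: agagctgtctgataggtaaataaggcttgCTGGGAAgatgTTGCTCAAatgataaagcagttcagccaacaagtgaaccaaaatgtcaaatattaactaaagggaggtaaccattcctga

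Fga was at 1608, 2085, 2340 and 2520 CPM in hepatoblasts, 10649, 10174, 9920 and 9084 in Diff. and 7150, 5376, 7377 and 4989 in mature hepatocytes. Fgb was at 1487, 2090, 2374 and 2393 CPM in hepatoblasts, 12632, 13447, 12167 and 12087 in Diff. and 7252, 5520, 7040 and 5468 in mature hepatocytes. The means of Fgg were 1013 ± 196, 4291 ± 318 and 3180 ± 598 CPM in the same order of groups. For each chain hepatoblasts were lowest and Diff. hepatocytes highest, without overlap. Log2 fold changes in Diff. hepatocytes were 2.22 ± 0.18 for Fga (edgeR adjusted p = 2.24e-07), 2.59 ± 0.17 for Fgb (edgeR adjusted p = 4.86e-08) and 2.08 ± 0.17 for Fgg (edgeR adjusted p = 3.33e-07). In mature hepatocytes they were 1.54 ± 0.17, 1.60 ± 0.17 and 1.65 ± 0.17, and 0.70 to 0.82 with library totals. Between both hepatocyte groups they were 0.68 ± 0.17, 0.99 ± 0.17 and 0.43 ± 0.17, and Fga and Fgb passed the limit with library totals, at 1.21 and 1.52. Fgb also passed it, at 1.01 to 1.06, without hepatoblast replicate 1, Diff. hepatocytes replicate 3 or 4, or mature hepatocytes replicate 1 or 3.

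The balance of the chains differed as well. Fga to Fgb per length had a log2 ratio of 0.60 ± 0.06 in hepatoblasts, 0.22 ± 0.08 in Diff. and 0.53 ± 0.08 in mature hepatocytes. Fgg to Fgb had 0.13 ± 0.04, -0.39 ± 0.11 and 0.17 ± 0.12. In Diff. hepatocytes the ratio of Fga to Fgb differed by -0.38 from hepatoblasts and by -0.31 from mature hepatocytes, and that of Fgg to Fgb by -0.51 and -0.55 (each exact permutation p = 0.0286, adjusted 0.0429). Mature hepatocytes and hepatoblasts differed by -0.07 in the first ratio (exact permutation p = 0.143) and by 0.04 in the second (exact permutation p = 0.571). Fgb thus had a larger share of fibrinogen RNA in the cultured cells than in either group lysed directly. These ratios are taken within a library and do not depend on the scaling.

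**Figure D4:**
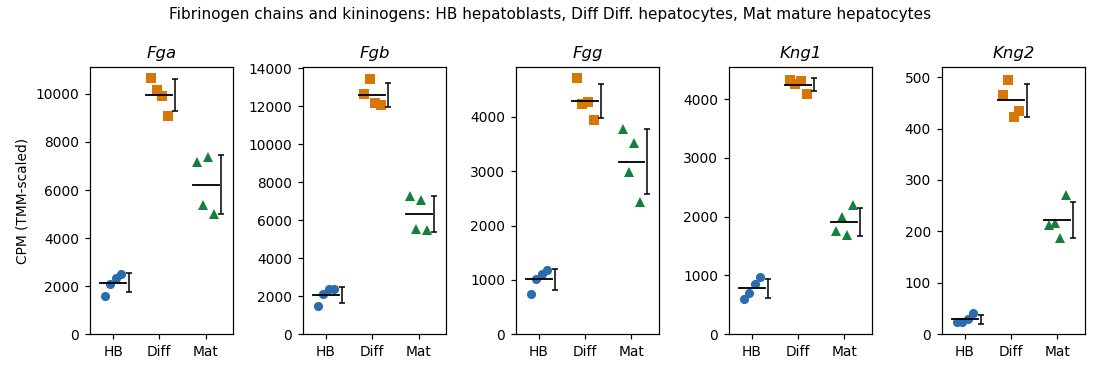
CPM (vertical axes from 0) of the 3 fibrinogen chains and both kininogens in hepatoblasts (HB), Diff. hepatocytes (Diff) and mature hepatocytes (Mat); points are libraries, lines means and bars SD of 4 libraries. In all 5 genes the Diff. hepatocytes lie above the other libraries, with mean Fgb at 12583 CPM against 2086 and 6320.

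The subunits of factor XIII, the transglutaminase that cross-links fibrin, did not move together. F13a1, the catalytic subunit, was at 15.7, 2.51, 1.68 and 1.89 CPM in hepatoblasts, 90.3, 51.5, 9.86 and 16.1 in Diff. and 0.411, 0.321, 0.292 and 0.31 in mature hepatocytes. Hepatoblast replicate 1 lay within the range of Diff. hepatocytes, and mature hepatocytes were lowest. The log2 fold change of F13a1 was 2.94 ± 0.77 in Diff. hepatocytes (edgeR adjusted p = 0.00516) and -4.02 ± 1.15 in mature hepatocytes (edgeR adjusted p = 0.00641). The call in Diff. hepatocytes was lost without any 1 of hepatoblast replicates 2 to 4 or Diff. hepatocytes replicates 1 and 2, at 2.25 to 2.82, and that in mature hepatocytes without hepatoblast replicate 1, at -2.60 (edgeR adjusted p = 0.0369), or any mature library, at -4.14 to -3.97. Of the granulocyte markers 6 of 6 were lower in mature hepatocytes than in hepatoblasts, their sum was 133, 74, 6.49 and 23.2 CPM in Diff. hepatocytes, in the order of F13a1, and the macrophage list summed to 211, 99.4, 30.3 and 48.2 there. In mature hepatocytes the macrophage list was at 153 to 292 CPM, within the range of hepatoblasts, while F13a1 was at most 0.411. The megakaryocyte and platelet list summed to 66.1, 32.5, 33.2 and 16.1 CPM in hepatoblasts and 68.8, 73.6, 24.7 and 39 in Diff. hepatocytes. In mature hepatocytes it summed to 4.47 to 6.03 CPM, with all 8 markers called lower than in hepatoblasts. Against hepatoblasts, Diff. hepatocytes, where F13a1 was called higher, had 3 of 6 granulocyte and 3 of 10 macrophage markers called lower. No marker of either list was called higher there, and none of the 8 megakaryocyte and platelet markers was called in either direction. The part of these cells in the F13a1 result was not tested.

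F13b, the carrier subunit, was at 67.8 ± 16.1 CPM in hepatoblasts, 97.6 ± 19.4 in Diff. and 258 ± 11.3 in mature hepatocytes. It was called in mature hepatocytes only, at 1.93 ± 0.17 from hepatoblasts (edgeR adjusted p = 2.75e-07). The log2 ratio of F13a1 to F13b differed by -4.86 between mature hepatocytes and hepatoblasts and by 7.43 between Diff. and mature hepatocytes (each exact permutation p = 0.0286, adjusted 0.0429). The difference of 2.56 between Diff. hepatocytes and hepatoblasts did not pass (exact permutation p = 0.0857, adjusted 0.114).

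Of all tested genes, 28.9% were called in Diff. and 44.8% in mature hepatocytes against hepatoblasts. Of the 9 anticoagulants, 1 was called higher and 1 lower in Diff. hepatocytes than in hepatoblasts, and 4 higher and 1 lower in mature hepatocytes. Serpinc1, antithrombin and the most abundant of them per length over the 12 libraries, was at 534, 676, 848 and 913 CPM in hepatoblasts, 1004, 1426, 1322 and 1281 in Diff. and 2958, 2513, 2789 and 3037 in mature hepatocytes. The 3 groups did not overlap. The log2 fold change of Serpinc1 was 0.76 ± 0.17 in Diff. hepatocytes, under the limit, and 1.93 ± 0.17 in mature hepatocytes (edgeR adjusted p = 2.5e-07). Exons of Zbtb37 overlap 2942 bases of Serpinc1 on the opposite strand. Pros1, protein S, was at 17.1, 19.3, 20.6 and 20.9 CPM in hepatoblasts, 14.8, 16.1, 14.2 and 15 in Diff. and 68.2, 80.3, 70.8 and 78.9 in mature hepatocytes. All mature libraries were above, and all Diff. hepatocytes below, the hepatoblasts, with log2 fold changes of 1.93 ± 0.09 in mature hepatocytes (edgeR adjusted p = 5.11e-10) and -0.38 ± 0.09 in Diff. hepatocytes, under the limit. Proc, protein C, was at 287 ± 65.2, 276 ± 33.6 and 799 ± 54 CPM in hepatoblasts, Diff. hepatocytes and mature hepatocytes, called in mature hepatocytes at 1.48 ± 0.15. Proz, protein Z, was called there at 1.63 ± 0.15.

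Serpind1, heparin cofactor II, was at 485, 686, 783 and 802 CPM in hepatoblasts, 350, 478, 454 and 466 in Diff. and 713, 662, 649 and 720 in mature hepatocytes. Diff. hepatocytes were lowest, at -0.66 ± 0.15 from hepatoblasts, and mature hepatocytes lay within the range of hepatoblasts at -0.01 ± 0.15. Serpina10, the protein Z-dependent inhibitor of factor Xa, was at 200, 294, 345 and 320 CPM in hepatoblasts, 341, 309, 346 and 332 in Diff. and 274, 409, 302 and 251 in mature hepatocytes. All 3 groups overlapped, with log2 fold changes of 0.20 ± 0.17 in Diff. and 0.09 ± 0.17 in mature hepatocytes, or -0.11 and -0.73 with library totals. Proz and Serpina10, whose proteins act together, thus did not share a call in mature hepatocytes, and the difference between them was not tested.

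Tfpi, the inhibitor of the tissue factor complex and abundant in endothelial cells, was at 12.9, 7.7, 8.61 and 6.26 CPM in hepatoblasts, 14.2, 6.8, 10.8 and 7 in Diff. and 4.32, 2.5, 4.49 and 3.17 in mature hepatocytes. Mature hepatocytes were lowest, at -1.29 ± 0.30 from hepatoblasts (edgeR adjusted p = 0.00143), whereas Diff. hepatocytes overlapped hepatoblasts at 0.13 ± 0.28, or -0.21 with library totals. With the fold limit inside the test, Tfpi was not called in mature hepatocytes (edgeR glmTreat, adjusted p = 0.137). The same held between both hepatocyte groups, at 1.42 (edgeR glmTreat, adjusted p = 0.0859). Of the 10 endothelial markers, 4 were called higher in mature hepatocytes than in hepatoblasts and none lower. Their part in the Tfpi result was not tested. Thbd, thrombomodulin, a membrane receptor that turns thrombin towards protein C, was at 1.44 ± 1.3 CPM in hepatoblasts, 4.86 ± 1.69 in Diff. and 2.8 ± 0.801 in mature hepatocytes. Its call in Diff. hepatocytes at 1.75 ± 0.47 (edgeR adjusted p = 0.00624) was lost without any 1 of hepatoblast replicates 2 to 4 or Diff. hepatocytes replicates 1, 2 and 4, at 1.48 to 1.83. In mature hepatocytes it was not called at 0.96 ± 0.48, and was called at 1.78 without hepatoblast replicate 1 (edgeR adjusted p = 0.000455).

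Serpina5, the protein C inhibitor, was barely detected in any group. It had 7 to 23 counts per hepatoblast library, 0 to 2 per library of Diff. hepatocytes and 0 to 11 per mature library, or 0.387, 0.209, 0.389 and 0.762 CPM, 0.0865, 0.043, 0.0444 and 0 CPM, and 0.206, 0.706, 0.175 and 0 CPM. It was called lower in Diff. hepatocytes (edgeR adjusted p = 0.00693), and 54 against 4 counts in all gave a ratio of 9.58 with an exact 95% counting interval of 3.53 to 36.4. A library without a count allows up to 3 counts. The call was lost without hepatoblast replicate 3 or 4 or any library of Diff. hepatocytes, at -3.63 to -2.73.

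Plasminogen and its activators parted in mature hepatocytes. Plg, plasminogen, was at 1121, 1447, 1782 and 1879 CPM in hepatoblasts, 2330, 3149, 2848 and 2688 in Diff. and 3671, 3438, 3688 and 3585 in mature hepatocytes. The 3 groups did not overlap, and the log2 fold change from hepatoblasts was 0.82 ± 0.16 in Diff. hepatocytes, under the limit, and 1.21 ± 0.16 in mature hepatocytes (edgeR adjusted p = 1.15e-05). Between both hepatocyte groups it was -0.38 ± 0.16, or 0.14 with library totals. Exons of Slc22a3 overlap 420 bases of Plg on the opposite strand. Plat, which encodes tPA, was at 2.58, 3.05, 4.31 and 3.21 CPM in hepatoblasts, 39, 12.9, 13.6 and 12.1 in Diff. and 0.206, 0.128, 0.0584 and 0.0621 in mature hepatocytes. Every Diff. library was above, and every mature library below, the hepatoblasts. Its log2 fold change in Diff. hepatocytes was 2.56 ± 0.36 (edgeR adjusted p = 4.37e-05) with replicate 1 far above the others. Mature libraries had 1 to 3 counts of Plat each, 7 in all, against 1754 in Diff. hepatocytes, a ratio of 178 with an exact 95% counting interval of 86.3 to 444.

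Plau, which encodes uPA, was at 1.9, 1.28, 1.04 and 0.862 CPM in hepatoblasts, 9.3, 3.53, 6 and 4.24 in Diff. and 0.754, 0.385, 0.875 and 0.807 in mature hepatocytes. Diff. hepatocytes were highest without overlap, at 2.18 ± 0.34 from hepatoblasts (edgeR adjusted p = 0.000117) and 3.02 ± 0.38 from mature hepatocytes (edgeR adjusted p = 1.24e-05). Mature hepatocytes were not called against hepatoblasts at -0.84 ± 0.39. Plaur, the receptor of uPA, was at 11.5, 3.52, 2.53 and 1.72 CPM in hepatoblasts, 46.4, 19.5, 29.7 and 27.6 in Diff. and 0.617, 0.642, 0.409 and 0.435 in mature hepatocytes. Diff. hepatocytes were highest and mature hepatocytes lowest, without overlap, at 2.67 ± 0.48 (edgeR adjusted p = 0.000333) and -3.20 ± 0.64 from hepatoblasts (edgeR adjusted p = 0.000535). Replicate 1 was highest for Plat, Plau and Plaur in Diff. hepatocytes, where it also had the most bile duct and mesenchymal marker RNA, and highest for Plau and Plaur in hepatoblasts, where it had the most blood cell RNA. The bile duct genes summed to 70 to 213 CPM in Diff. hepatocytes against 12.9 to 15.1 in hepatoblasts, with 3 of the 5 tested called higher and none lower. The mesenchymal genes summed to 66.5 to 97.3 CPM in mature hepatocytes against 1241 to 2242 in hepatoblasts, with 6 of 8 called lower and 1 higher, and in Diff. hepatocytes 2 of 8 were called higher and 1 lower. Without replicate 1 of hepatoblasts and of Diff. hepatocytes, 16 of the 37 genes were called higher and 3 lower in Diff. hepatocytes than in hepatoblasts, with A2m gained (-1.80) and Serpina5 lost (-3.66) among the lower. The part of other cell types in these results was not tested.

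**Figure D5:**
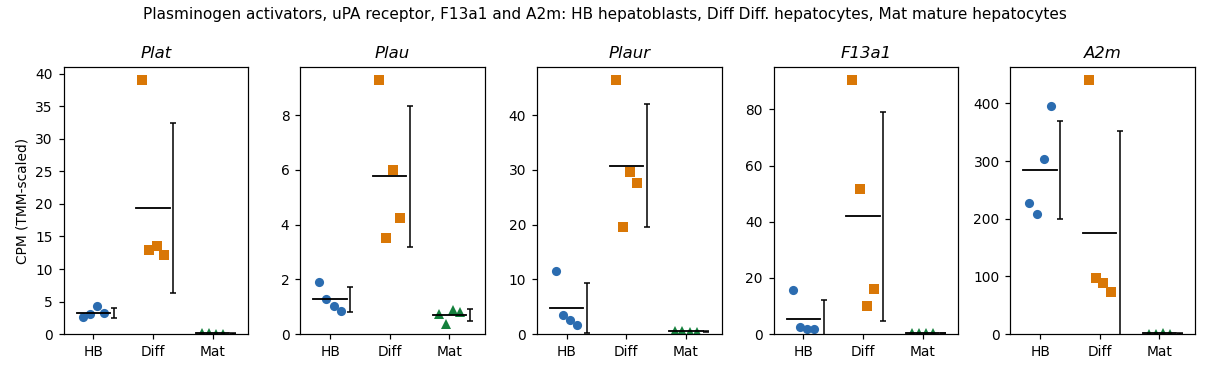
CPM (vertical axes from 0) of Plat, Plau, Plaur, F13a1 and A2m in hepatoblasts (HB), Diff. hepatocytes (Diff) and mature hepatocytes (Mat); points are libraries, lines means and bars SD of 4 libraries. Replicate 1 of Diff. hepatocytes is the highest point of its group in all 5 genes, and mature hepatocytes are at most 0.875 CPM in Plat, Plau, Plaur and F13a1.

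Inhibitors and modulators of fibrinolysis held both the largest rise and the largest fall from hepatoblasts to mature hepatocytes among the 37 genes. Hrg, histidine-rich glycoprotein, which binds plasminogen, heparin and fibrinogen, was at 1.74, 1.7, 2.04 and 2.52 CPM in hepatoblasts, 57.8, 208, 91.7 and 104 in Diff. and 874, 963, 774 and 1038 in mature hepatocytes. The groups were far apart, at log2 fold changes of 5.85 ± 0.37 in Diff. hepatocytes (edgeR adjusted p = 2.99e-08) and 8.83 ± 0.41 in mature hepatocytes (edgeR adjusted p = 5.75e-10). Diff. against mature hepatocytes gave -2.98 ± 0.31 (edgeR adjusted p = 1.9e-06). Hrg lies at chr16:22951072-22961656 (GRCm38), next to Kng2, with 24197 bases and no protein-coding gene between Hrg and Kng2.

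A2m, alpha-2-macroglobulin, a broad protease inhibitor that also traps plasmin, was at 228, 209, 304 and 396 CPM in hepatoblasts, 440, 97.5, 88.4 and 72.7 in Diff. and 1.1, 1.09, 1.58 and 0.931 in mature hepatocytes. Mature hepatocytes were lowest, at -7.90 ± 0.70 from hepatoblasts (edgeR adjusted p = 2.5e-07). In Diff. hepatocytes 3 libraries were below all hepatoblasts and replicate 1 above them, so that the log2 fold change of A2m was -0.70 ± 0.47 with replicate 1 (edgeR adjusted p = 0.22) and -1.72 without it (edgeR adjusted p = 2.14e-05). Vtn, vitronectin, an adhesive glycoprotein of plasma and matrix, was at 846, 1083, 1273 and 1387 CPM in hepatoblasts, 931, 1289, 1133 and 1123 in Diff. and 3215, 3178, 3171 and 3064 in mature hepatocytes. Mature hepatocytes were above all others, at 1.46 ± 0.15 from hepatoblasts (edgeR adjusted p = 1.2e-06), and Diff. hepatocytes overlapped hepatoblasts at -0.04 ± 0.15.

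Serping1, the C1 inhibitor that also blocks kallikrein and factor XIIa, was called in all 3 comparisons, at 110 ± 22.9, 487 ± 41.5 and 1026 ± 57.2 CPM in hepatoblasts, Diff. hepatocytes and mature hepatocytes. Its call between both hepatocyte groups, at -1.07 ± 0.14, was lost with library totals (-0.55), with at least 10 counts in every library (-0.97) and with the fold limit inside the test (edgeR glmTreat, adjusted p = 0.317). Serpinf2, the inhibitor of plasmin, was at 2270 ± 476, 1068 ± 105 and 1139 ± 144 CPM. It was called lower in Diff. hepatocytes at -1.09 ± 0.16 (edgeR adjusted p = 5.34e-05) and lay at -0.99 ± 0.16 in mature hepatocytes, just inside the limit, which it passed at -1.13 without hepatoblast replicate 1, and also without hepatoblast replicate 2, Diff. hepatocytes replicate 2 or mature hepatocytes replicate 1 or 3. Cpb2, which encodes the fibrinolysis inhibitor TAFI, was called in mature hepatocytes at 1.03 ± 0.16, lost at 0.90 to 0.99 without replicate 1 or 2 of hepatoblasts or replicate 2 or 3 of mature hepatocytes, and was 0.73 ± 0.16 in Diff. hepatocytes. These inhibitors and modulators thus had no common direction: in mature hepatocytes Serping1, Cpb2, Hrg and Vtn were called higher, A2m lower and Serpinf2 not.

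Another 24 genes of the pathway were examined for context. In Diff. hepatocytes 7 were called higher and 3 lower than in hepatoblasts, in mature hepatocytes 6 higher and 5 lower, and between both hepatocyte groups 4 were higher and 2 lower in Diff. hepatocytes. The shares called were 41.7%, 45.8% and 25%, where 28.9%, 44.8% and 35.8% of all tested genes were called. Anxa2, a plasminogen-binding annexin, fell by 4.13 ± 0.26 in mature hepatocytes (edgeR adjusted p = 9.36e-09). Plgrkt, also listed with plasminogen activation, was called lower there too. S100a10 of the same list was called higher in both hepatocyte groups than in hepatoblasts. Its log2 CPM was 2.15 to 3.05 in hepatoblasts and 5.56 to 6.63 in mature hepatocytes. F2rl1, a receptor cut by tissue factor with factor VIIa, was called higher by 2.42 ± 0.20 in Diff. hepatocytes and lower in mature hepatocytes at -3.19 ± 0.27.

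In the vitamin K cycle, Ggcx, the carboxylase that modifies factors II, VII, IX and X, was at 147 ± 31.5, 72.5 ± 4.59 and 132 ± 6.64 CPM. It was called lower in Diff. hepatocytes at -1.01 ± 0.13 (edgeR adjusted p = 2.38e-05), close to the limit of 1. Vkorc1, the reductase that is the target of warfarin, was called higher in mature hepatocytes by 1.60 ± 0.14 (edgeR adjusted p = 1.75e-07). Fgl1, a fibrinogen-like protein of hepatocytes, rose from 1.26 ± 0.142 CPM in hepatoblasts to 240 ± 50.8 in Diff. and 341 ± 203 in mature hepatocytes, the largest rise of these 24 genes in both. Adamts13, which cleaves von Willebrand factor, fell by 2.72 ± 0.34 in Diff. hepatocytes (edgeR adjusted p = 1.54e-05) and fell by 2.07 ± 0.33 in mature hepatocytes. Habp2, a protease that can activate factor VII, fell by 1.69 ± 0.14 in Diff. hepatocytes (edgeR adjusted p = 3.96e-07) and was -0.29 ± 0.14 in mature hepatocytes.

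Several of the genes are neighbours in the genome. F7, F10 and Proz follow one another on chromosome 8 with gaps of 1498 and 4237 bases, and all 3 were called higher in mature hepatocytes than in hepatoblasts, whereas between both hepatocyte groups only F7 was called. Klkb1 and F11, 4657 bases apart on the same chromosome, were called against hepatoblasts in different groups, Klkb1 in mature and F11 in Diff. hepatocytes, a difference that was not tested. Kng2 and Kng1 are 28382 bases apart on chromosome 16, in opposite orientation.

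RefSeq promoters, from 250 bases before to 50 after the start, were matched for 27 of the 37 genes, and matches were counted on both strands. TTGCNNAA was found in 11 of the 27 (40.7%), among them Fga, Fgb, F9, Kng2, Hrg and Serpinc1, where 12.2% of 27025 genes with a promoter in the table held it. CTGGGAA was found in 6 (22.2%) against 12.7% of all genes, in F9, Fgb, Fgg, Kng2, Tfpi and Vtn, and ACANNNTGT in 5 (18.5%) against 7.9%, in F11, Fga, Fgb, Hrg and Serpinf2, with the match of Fgb outside the stretch shown. The letters TATAAA were in 5 (18.5%, against 15.7%), GTTAATNAT (HNF1) in F13b and Fga (7.41%, against 0.94%) and CAAAGTCCA (HNF4) in none (against 0.555%). In the 3 stretches shown no matches overlapped. The counts describe letters in these windows, not binding.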

How the data were processed

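RNA of 12 libraries was analysed, 4 per group, read as 75-base single reads from strand-specific poly(A) libraries. The authors checked reads with FastQC 0.11.2, mapped them with STAR 2.5.2b to GRCm38 and counted them on Ensembl genes, so that the deposited matrix holds raw counts. The strand setting of the counting is not given in the sources used here. Per the submitters' processing notes Picard 2.10.2 and DESeq2 1.22.2 were also used. Replicates differed by more than sampling noise (chi-square of each pair divided by the number of genes, 6.43 to 99.2). Counting intervals cover counting error only.

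Counts were analysed in R 4.3.3. Genes were kept where any library held more than 10 counts, libraries were scaled by TMM, and edgeR 4.0.16 fitted its quasi-likelihood test with the group as the only term over 12 libraries, with Benjamini-Hochberg adjustment over 17779 genes. Limma 3.58.1 is used by edgeR, and DESeq2 1.42.0 served for alternatives. On simulated counts for Diff. hepatocytes against hepatoblasts, 189 of 200 genes changed by 2 on the log2 scale were recovered among 16614, with 0 false calls. In the data 28.9% of tested genes were called in this comparison. Recovery with such a share of changed genes, or under another scaling, was not tested. Levels per length divide CPM by the longest APPRIS principal transcript of GENCODE M21. Ratios used a prior count of 2 and a two-sided exact permutation test over 70 assignments.

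The genes, their roles, the marker lists and the motifs were chosen with earlier results of these data known. Library values are given for the most abundant gene of each role, that with the largest change in each comparison, those called in opposite directions or higher in Diff. than in mature hepatocytes, and those never called. A further gene of the pathway is not reported here. No batch is named in the labels or methods.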

Additional observations from a re-analysis of the deposited data

Results flagged for a closer look

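In 7 of 132 groups of 4 libraries, 1 library stood apart from the other 3 by more than Dixon's 95% critical value, where chance alone gives about 1 in 20, or 6.6. All 7 were a replicate 1. In hepatoblasts, replicate 1 had 23.4 CPM of F7 where the others had 37.8 to 40.2, 2.81 CPM of F8 against 1.65 to 1.82, and 15.7 CPM of F13a1 against 1.68 to 2.51. In Diff. hepatocytes, replicate 1 had 7.39 CPM of Thbd against 3.86 to 4.09, 39 CPM of Plat against 12.1 to 13.6, 911 CPM of Serpinf2 against 1104 to 1136, and 440 CPM of A2m against 72.7 to 97.5.

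Hepatoblast replicate 1 had the lowest value of its group in 25 of the 37 genes and the highest in 7. It had 217 CPM over the 10 endothelial genes against 119 to 141 in the other hepatoblast libraries. Whether the blood cell, endothelial, bile duct or mesenchymal markers of these libraries account for any of the 7 values was not tested.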

How the results depend on the processing

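Of 111 log2 fold changes, 37 genes in 3 comparisons, 59 kept their direction and their side of the threshold under every alternative run. Of 2316 alternative values 2171 did so, 75 lost the call, 42 gained it and 28 changed sign, all of them in values that were not called. Depth limits Serpina5 and Plat in mature hepatocytes. The cause of the changes below was not tested.

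Coagulation and fibrinolysis genes lower in Diff. hepatocytes than in hepatoblasts numbered 3, 0 with the fold limit inside the edgeR test (glmTreat), and 5 at an adjusted p under 0.05 without fold limit, with which 14 instead of 9 were higher in Diff. than in mature hepatocytes. Library totals gave 10 instead of 24 higher in mature hepatocytes than in hepatoblasts. The other 24 pathway genes went from 7 higher in Diff. hepatocytes to 12 (0.05), and from 3 lower to 5 (0.05). In mature hepatocytes they went from 6 higher to 12 (0.05), and from 5 lower to 3 (glmTreat, and at least 10 counts in every library) and 10 (library totals). Between both hepatocyte groups they went from 4 higher to 9 (library totals), 2 (10 counts in every library) and 8 (0.05), and from 2 lower to 0 (library totals), 8 (0.05) and 1 (glmTreat, no filter, 10 counts in every library, and a fit of the 8 libraries).

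Signs turned with library totals for Vwf (-0.25), Serpina10 (-0.11) and Tfpi (-0.21) in Diff. hepatocytes against hepatoblasts, Serpina10 (-0.73) in mature hepatocytes, and F2 (0.36), Plg (0.14), Serpinf2 (0.44) and Cpb2 (0.22) between both hepatocyte groups. With at least 10 counts in every library they turned for Serpina10 in mature hepatocytes (-0.03) and Serpinf2 between both hepatocyte groups (0.01). Without 1 library, values that turned in some fits ranged in Diff. hepatocytes from -0.16 to 0.68 for Vwf, -0.16 to 0.07 for Proc, -0.11 to 0.38 for Tfpi and -0.15 to 0.06 for Vtn, and in mature hepatocytes from -0.15 to 0.07 for Serpind1 and -0.08 to 0.18 for Serpina10. Serpina10 was also -0.05 without replicate 1 of hepatoblasts and of Diff. hepatocytes, an alternative chosen after seeing the data.

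Without 1 library, the genes numbered 14 to 16 higher and 2 to 3 lower in Diff. hepatocytes, 23 to 25 and 5 to 7 in mature hepatocytes, and 9 to 10 and 12 to 13 between both hepatocyte groups. The other pathway genes numbered 6 to 8 and 2 to 3, 6 to 7 and 4 to 5, and 4 to 5 and 1 to 2. Calls that depended on 1 library were those of F13a1, Serpina5, Thbd, F12 and A2m in Diff. hepatocytes, of F13a1, F11, Thbd, Serpinf2 and Cpb2 in mature hepatocytes, and of F3 (called without Diff. replicate 2), Kng2, Fgb, Proz (called at -1.01 without Diff. replicate 2) and Serpina5 (called at -2.88 without mature replicate 4) between both. DESeq2's Wald test changed 3 of the 111 calls, and its size factors in edgeR 2.

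Whether equal replicate numbers mark a shared source is not stated, and the libraries were treated as unpaired. Between Diff. hepatocytes and hepatoblasts the deviations of same-numbered libraries correlated at 0.324, -0.059, 0.246 and 0.184 for replicates 1 to 4, and 3 of the 4, replicates 1, 3 and 4, matched their own number best, a hint from the data and not from the design. The correlations were -0.031 to 0.092 between mature hepatocytes and hepatoblasts and -0.081 to 0.087 between both hepatocyte groups. With the replicate block, 17 genes instead of 16 were higher and 2 instead of 3 lower in Diff. hepatocytes than in hepatoblasts: F12 was called at 1.00 and Serpina5 lost at -3.15 (edgeR adjusted p = 0.0144). Under the block, Serpind1 in mature hepatocytes was 0.02.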

Other observations

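A2m has relatives among the mouse alpha-macroglobulins, which were looked up after the fall of A2m had been seen. Pzp, the pregnancy zone protein, was at 792 ± 219 CPM in hepatoblasts, 2660 ± 157 in Diff. and 7664 ± 1072 in mature hepatocytes. Mug1, a murinoglobulin, was at 1.39 ± 0.326, 2.51 ± 0.513 and 4630 ± 552 CPM, and Mug2 at 1.05 ± 0.154, 1.53 ± 0.296 and 895 ± 155 CPM. From hepatoblasts to mature hepatocytes, where A2m was at -7.90 ± 0.70, the log2 fold changes were 3.27 ± 0.19 for Pzp, 11.69 ± 0.24 for Mug1 and 9.73 ± 0.21 for Mug2 (edgeR adjusted p = 4.75e-09, 5.4e-13 and 7.66e-13). In Diff. hepatocytes Pzp was higher than in hepatoblasts at 1.75 ± 0.18 (edgeR adjusted p = 2.73e-06), while Mug1 and Mug2 were not called at 0.84 ± 0.20 and 0.55 ± 0.20. The libraries of mature hepatocytes did not overlap those of the other groups in any of these genes. A2m has 0% of its 75-base stretches in another gene. Whether Pzp, Mug1 and Mug2 share such stretches with one another, and how the counting treated shared reads, was not examined.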
